A study of Mus musculus with 26 samples.

Results

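Cytosolic ribosomal protein genes were followed across 18 RNA sequencing libraries of osteoblasts, the bone-forming cells, cultured from mouse femurs. They were chosen by name: every symbol made of Rps or Rpl, a number and at most 1 closing letter (a, x or l), with Rplp0, Rplp1, Rplp2 and Rpsa added and symbols marked as pseudogenes left out. The rule found 82 of the 26264 gene symbols in the count table, 32 of the small (40S) subunit and 50 of the large (60S) subunit, the latter with the 3 stalk genes. Of these, 80 had enough counts to be tested among 16566 genes. The other 2 were Rpl10l, a testis paralog of Rpl10 with 0 counts in all 18 libraries (3 counts, the limit that a count of 0 allows, are 0.0381 to 0.0608 CPM, counts scaled to library totals of 1e+06 and corrected for composition by TMM factors), and Rpl3l, a muscle paralog of Rpl3 with at most 18 counts in a library.

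The cytosolic ribosome reads messenger RNA and joins amino acids into protein. The small subunit decodes the message, the large subunit forms the peptide bond, and most ribosomal proteins are built in with ribosomal RNA in the nucleolus. Because the proteins are needed in matched amounts, their genes are transcribed strongly and in parallel in most cell types, and their mRNAs begin with a pyrimidine tract, the TOP motif, through which mTOR and Larp1 control their translation. When assembly fails, free Rpl5 and Rpl11 bind Mdm2 and so raise p53. Osteoblasts secrete large amounts of collagen and depend on this machinery, and inherited defects of single ribosomal proteins can disturb the skeleton.

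Osteoblasts of C57BL/6J mice made up YOUNG (3 months of age) and OLD (18 months). CKO-YOUNG and CKO-OLD came from Kdm2bfl/fl Ocncre Ai14 mice of the C57BL/6J background, in which Cre under the osteocalcin promoter, a promoter of mature osteoblasts, removes a domain of Kdm2b named CxxC, through which this PRC1.1 component of the Polycomb group contacts DNA. CON-YOUNG had the Ocncre driver and the Ai14 reporter alone. CON-OLD-iBP is labelled as an old control with iBP, a name the labels do not expand, and the ages of the Ocncre groups are given as young or old without months. All cells were grown in the same serum-containing medium. There were 3 libraries a group, of about 46272100 to about 77698800 counts each, and nothing in the labels says whether replicates were separate animals or separate cultures, so a p-value here reads the spread between libraries, which may be technical. The old knockout cells had no untreated old counterpart with the driver, and were set against OLD.

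Kdm2b itself ranged from 16.2 to 58.2 CPM and stood at 51.5, 58.2 and 27.6 CPM in CKO-YOUNG against 48.8, 52.9 and 19.9 in CON-YOUNG; a count of the entire gene is no check on the loss of 1 domain. Markers of osteoblasts (12 of 12 genes present in every group) made up 1.65% to 6.19% of a library. Macrophage markers (16 of 16 genes, none at 0 in a whole group) were lowest in the young Ocncre groups, with 0.0143% to 0.104% for CKO-YOUNG and 0.0196% to 0.0482% for CON-YOUNG, then 0.0514% to 0.102% for CON-OLD-iBP, 0.145% to 0.630% for CKO-OLD, 0.148% to 1.13% for OLD and 0.353% to 1.59% for YOUNG; their part in the results was not tested. Osteoclast markers (9 of 9 genes) took 0.226% and 0.232% in OLD 1 and OLD 3 and 0.0167% to 0.0446% in the other 16 libraries; among them Calcr was at 0 in YOUNG, CON-YOUNG, CKO-YOUNG and CON-OLD-iBP, Ocstamp in CON-YOUNG and Dcstamp in CKO-YOUNG. Chondrocyte markers (7 of 7 genes, 1 of them at 0 in OLD and 1 in CKO-YOUNG) took 0.00570% in YOUNG 2 and 1.45% in YOUNG 3. They reached 1.08% in CKO-OLD 3 and 1.09% in CON-OLD-iBP 1. Smooth muscle and pericyte markers (6 of 6 genes) ran from 0.0371% in CON-OLD-iBP 1 to 0.688% in CKO-YOUNG 2. The part of these markers was not tested. The libraries also fell into 3 sets that cross the groups. The nuclear RNA Malat1 was above 0.05% of counts in 10 libraries (set 3: CON-OLD-iBP 1, 2 and 3, CKO-OLD 1, 2 and 3, OLD 2, YOUNG 3, CKO-YOUNG 3 and CON-YOUNG 3), and below it in YOUNG 1 and 2 with OLD 1 and 3 (set 1) and in CON-YOUNG 1 and 2 with CKO-YOUNG 1 and 2 (set 2). The female-specific RNA Xist stood at 391 to 481 CPM in set 1, where the Y-linked gene Ddx3y was at 0, and CKO-YOUNG 3 held both. All other libraries had Xist at 0 to 0.404 CPM and Ddx3y at 36.2 to 91.8 CPM. YOUNG and OLD thus each held both patterns, and set 1 and sex cannot be told apart here. The sets were seen in the data and are not groups of the study or batches named in the labels, so results are also given within them. In bulk RNA, fewer cells of a type and less RNA per cell cannot be told apart.

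The 82 genes together took 2.80% to 5.49% of the counts of a library, and the widest spreads lay inside groups. It was 4.39, 3.77 and 3.33% in YOUNG 1, 2 and 3 and 4.63, 3.75 and 4.73% in OLD 1, 2 and 3. CON-YOUNG held 3.37, 3.76 and 4.21% and CKO-YOUNG 3.68, 3.59 and 3.92%. Values were 5.31, 3.11 and 3.17% in CKO-OLD and 3.67, 2.80 and 5.49% in CON-OLD-iBP. The highest library, CON-OLD-iBP 3, and the lowest, CON-OLD-iBP 2, were replicates of each other and lay 1.96-fold apart, and in CKO-OLD the first replicate stood well above the other two. Group means ran only from 3.73 ± 0.172% (SD, n = 3) in CKO-YOUNG to 4.37 ± 0.537% in OLD, and the ranges of all 6 groups overlapped. The same libraries led gene by gene: CON-OLD-iBP 3 was the highest of 18 for 37 of the 80 tested genes and CKO-OLD 1 for 15, while CON-OLD-iBP 2 was the lowest for 28 and CKO-OLD 2 for 20.

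**Figure D1:**
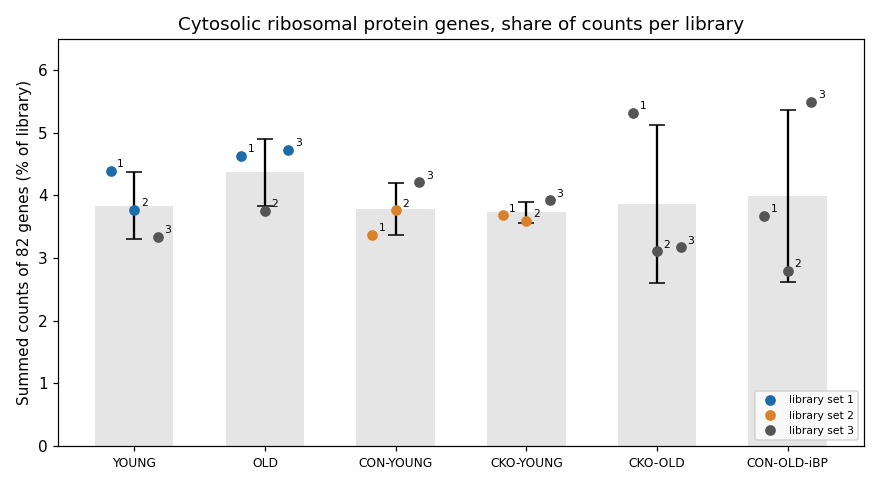
Summed counts of the 82 ribosomal protein genes as a percentage of all counts, by group. Points are libraries with their replicate number, coloured by library set, bars are group means and whiskers are SD (n = 3); CON-OLD-iBP spans 2.80% to 5.49% and CKO-YOUNG only 3.59% to 3.92%.

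The balance of the subunits moved little. Counts of large subunit genes were 1.52 to 1.72 times those of small subunit genes in all 18 libraries, the lowest ratio in CKO-YOUNG 2 and the highest in CKO-OLD 3. Across libraries the genes were steadier than most: the median standard deviation of log2 CPM was 0.328 over the 80 genes, 0.431 over all 16566 genes tested and 0.366 over genes in the same range of CPM, and 67 of the 80 lay under the all-gene median. The median pairwise correlation between the genes over the 18 libraries was 0.62, a description that includes the shared library effects above.

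No ribosomal protein gene passed the threshold (edgeR quasi-likelihood F test, Benjamini-Hochberg adjusted p under 0.05 over all genes tested) in any of the 8 comparisons, while the shares of all genes called ran from 0% to 5.55%. The genes still leaned together in several comparisons, by small amounts. Those leans are given below by their counts and medians, without a test, because the genes of a library share its level. Each group serves in 2 or more of the comparisons, OLD and CKO-OLD in 4 each, so the comparisons are not independent of each other.

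**Figure D2:**
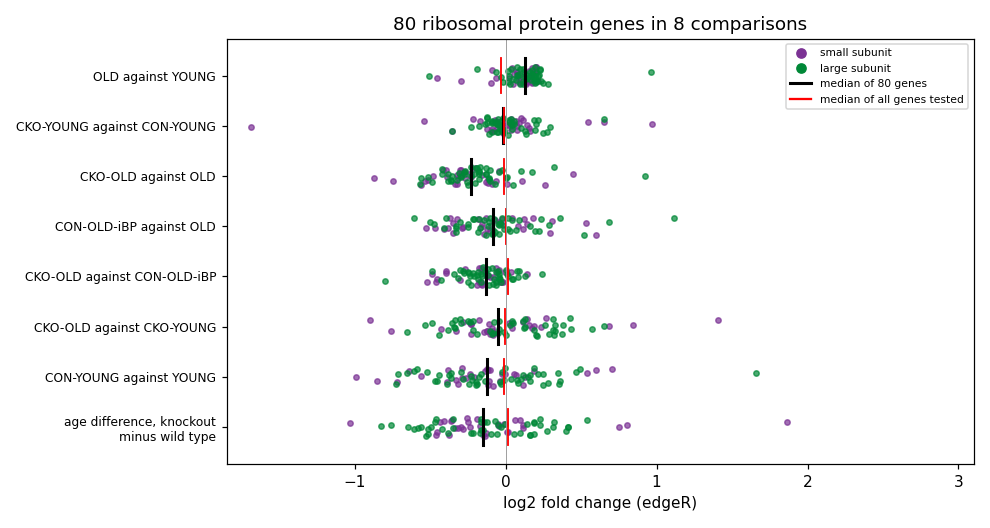
Log2 fold changes of the 80 tested ribosomal protein genes in 8 comparisons, each dot 1 gene (purple small subunit, green large subunit, jittered vertically), with the median of the 80 genes in black and of all 16566 genes in red. No dot is a call at an adjusted p under 0.05; medians lie between -0.23 (CKO-OLD against OLD) and 0.13 (OLD against YOUNG), and the dots farthest out are Rps27 (-1.69, 1.41 and 1.86), Rpl32l (1.66, a gene at 0 to 0.322 CPM) and Rpl38 (1.12).

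With age in C57BL/6J cells the genes leaned upwards. In OLD against YOUNG 70 of 80 fold changes were positive, with a median log2 fold change of 0.13, against -0.03 over all genes; none of the 80 was called (0% of all genes were), none had an unadjusted p under 0.05 (3.34% of all genes did), and DESeq2 and limma-voom with quality weights also called 0 (0.247% and 6.68% of all genes). The smallest p belonged to Rps4l, an autosomal paralog of Rps4x, followed by Rpl28 and Rpl4, both large subunit proteins. Rps4l was 35.8, 25.4 and 31.3 CPM in YOUNG and 23.4, 28.0 and 23.8 in OLD (log2 fold change -0.30, SE 0.24, edgeR adjusted p = 1), overlapping. Rpl28 was 563, 445 and 445 CPM in YOUNG and 659.5, 429 and 676 in OLD (log2 fold change 0.28, SE 0.23, edgeR adjusted p = 1). The groups overlapped, with OLD 2 the lowest of the 6 libraries. Rpl4 was 1222, 1049 and 934 CPM in YOUNG and 1321, 1042 and 1368 in OLD (log2 fold change 0.22, SE 0.20, edgeR adjusted p = 1), again overlapping. Groups without overlap were seen for 4 genes higher in OLD (among them Rpl21, Rpl23a and Rpl36a; 5.73% of all genes) and for 1 lower, Rpl39l (5.63%). Between the low-Malat1 libraries of set 1, 73 of 80 were higher in OLD (median 0.19); between YOUNG 3 and OLD 2 in set 3, 33 were (median -0.02), and the fold change of Rpl28 turned to -0.054. OLD 1 and OLD 3, the libraries of high osteoclast markers, are the OLD libraries of set 1. In OLD against YOUNG 8 of 9 osteoclast markers were positive, 7 with an unadjusted p under 0.05, and 2 of 12 osteoblast markers were (median -0.83). Macrophage markers were positive in 0 of 16 (median -0.44) and chondrocyte markers in 1 of 7 (median -7.46). EdgeR called none of these markers, and their part in the lean was not tested.

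Young knockout and young control cells were read on either side of each other with no common direction. In CKO-YOUNG against CON-YOUNG 37 of 80 were positive and the median was -0.02, against -0.01 over all genes; 0 of the 80 were called (0.127% of all genes), 1 had an unadjusted p under 0.05 (5.48%), and DESeq2 and limma-voom called 0 (1.38% and 2.98%). That 1 gene was Rps27l, a paralog of Rps27 that p53 induces. It stood at 77.6, 97.8 and 76.0 CPM in CON-YOUNG and 109.8, 107 and 178 in CKO-YOUNG (log2 fold change 0.65, SE 0.28, edgeR adjusted p = 0.802). Every knockout library was above every control library, as was so for 5.32% of all genes in this direction. Rps29, a zinc-binding protein of the small subunit, was 41.6, 47.8 and 70.8 CPM in CON-YOUNG and 53.3, 38.4 and 221 in CKO-YOUNG (log2 fold change 0.97, SE 0.47, edgeR adjusted p = 0.931). The high value was that of CKO-YOUNG 3, and without that library the log2 fold change was -0.22. Rps2, near the mRNA entry of the small subunit, read 2068, 2414 and 1615 CPM in CON-YOUNG and 1206, 2293 and 695 in CKO-YOUNG (log2 fold change -0.54, SE 0.33, edgeR adjusted p = 1), with CKO-YOUNG 2 inside the control range and the other 2 below it. Rpl3, at the peptidyl transferase centre, was the gene without overlap in the lower direction (3.19% of all genes), with a log2 fold change of -0.13. Within set 2, 51 of 80 were positive (median 0.03); between CON-YOUNG 3 and CKO-YOUNG 3 in set 3, 34 were (median -0.06), and there Rps29 alone was called by edgeR (log2 fold change 1.64, adjusted p = 0.0147, the lowest of its alternatives, which reach 1; 6.72% of all genes).

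Old knockout cells leaned below old C57BL/6J cells. In CKO-OLD against OLD 11 of 80 were positive and 69 negative, with a median of -0.23 against -0.01 over all genes. None was called by edgeR (0.00604% of all genes) or DESeq2 (1.09%), and 5 of 80 had an unadjusted p under 0.05, all lower (8.16% of all genes). Limma-voom with quality weights called 61, all lower, and with it 41.1% of all genes; it gave OLD 1 and OLD 3 weights of 4.69 and 4.94. Rps18, at the head of the small subunit, was 656, 416 and 669.7 CPM in OLD and 310.2, 378 and 352 in CKO-OLD (log2 fold change -0.75, SE 0.25, edgeR adjusted p = 0.501). Rps2 was 1485, 1072 and 1564 CPM in OLD and 767, 891 and 595 in CKO-OLD (log2 fold change -0.87, SE 0.33, edgeR adjusted p = 0.544). For both genes every CKO-OLD library was below every OLD library (8.47% of all genes in this direction, with 0 members and 8.9% of all genes in the other). With the counts of its copy Rps18-ps4 added, as given below, Rps18 overlapped. Rps26, which lies at the mRNA exit, was 610.3, 362 and 624 CPM in OLD and 454, 319 and 309.8 in CKO-OLD (log2 fold change -0.56, SE 0.25, edgeR adjusted p = 0.593), and overlapped. The lean depended on the OLD libraries used: with OLD 2, the single OLD library in set 3, 47 of 80 were positive (median 0.02). Leaving out CKO-OLD 1, the library of highest share in its group, took the median to -0.52, and each of the other 5 omissions left it between -0.34 and -0.09. Of the osteoclast markers 1 of 9 was positive and 6 had an unadjusted p under 0.05, and of the osteoblast markers 10 of 12 were positive (median 0.37). Macrophage markers were positive in 0 of 16 (median -1.77) and chondrocyte markers in 6 of 7 (median 5.65). EdgeR called none of these markers, and their part was not tested.

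Between CON-OLD-iBP and OLD the direction differed from gene to gene. Of the 80 genes 25 were positive, with a median of -0.09 against 0.00 over all genes; edgeR called 0 (0.0241% of all genes, 0.0121% in each direction), DESeq2 0 (12.2%) and limma-voom 19, of them 17 lower (40.2%). An unadjusted p under 0.05 was reached by 2 genes (23.4% of all genes). Rps4l was 23.4, 28.0 and 23.8 CPM in OLD and 33.5, 39.6 and 40.8 in CON-OLD-iBP (log2 fold change 0.60, SE 0.24, edgeR adjusted p = 0.155), and was the 1 gene without overlap in the higher direction (14.3% of all genes; 0 in the lower, 15.8%). Rpl32, a large subunit protein, was 563, 308 and 582 CPM in OLD and 317, 245 and 392 in CON-OLD-iBP (log2 fold change -0.61, SE 0.26, edgeR adjusted p = 0.183). The set 1 libraries OLD 1 and OLD 3 were high and OLD 2 lay within the range of CON-OLD-iBP. Rpl38, known from mice in which its loss alters the axial skeleton, was 80.4, 123 and 80.4 CPM in OLD and 211, 90.4 and 315 in CON-OLD-iBP (log2 fold change 1.12, SE 0.56, edgeR adjusted p = 0.239), with CON-OLD-iBP 2 inside the OLD range. Against OLD 2 alone 71 of 80 genes were positive (median 0.16) and Rpl32 was at 0.045, so the direction of the lean turned with the OLD libraries used. It also turned when CON-OLD-iBP 2 was left out (median 0.08), and without CON-OLD-iBP 3 the median was -0.36. Of the osteoclast markers 1 of 9 was positive and 7 had an unadjusted p under 0.05. Macrophage markers were positive in 0 of 16 (median -3.68), and 15 had an unadjusted p under 0.05. Chondrocyte markers were positive in 7 of 7 (median 6.63). EdgeR called none of these markers, and their part was not tested.

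Old knockout cells were also set against the old control cells labelled with iBP, all 6 libraries being of set 3. There 12 of 80 genes were positive, with a median of -0.13 against 0.01 over all genes; 0 were called by edgeR (1.29% of all genes, 0.567% higher and 0.718% lower), 0 by DESeq2 (8.64%) and 0 by limma-voom (17.3%), and 0 had an unadjusted p under 0.05 (19.6%). Rps13, of the small subunit platform, was 296, 203 and 419 CPM in CON-OLD-iBP and 303, 204 and 189.5 in CKO-OLD (log2 fold change -0.40, SE 0.25, edgeR adjusted p = 0.387). Rps4l stood at 35.7, 17.5 and 28.0 CPM in CKO-OLD against the CON-OLD-iBP values above (log2 fold change -0.49, SE 0.24, edgeR adjusted p = 0.278). Both overlapped. Rps2, at 1019, 1042 and 1177 CPM in CON-OLD-iBP, was the 1 gene wholly lower in CKO-OLD (14.5% of all genes; 0 wholly higher, 16%), with log2 fold change -0.52, SE 0.33, edgeR adjusted p = 0.392. Without composition scaling 31 of 80 were positive (median -0.04) while the median of all genes moved from 0.01 to 0.12. Leaving out CON-OLD-iBP 3 turned the median of the 80 to 0.14, whereas leaving out CKO-OLD 1 took it to -0.43. Osteoblast markers were positive in 12 of 12 (median 0.67) and macrophage markers in 16 of 16 (median 1.84). Osteoclast markers were positive in 5 of 9 and chondrocyte markers in 3 of 7. EdgeR called none of these markers, and their part was not tested.

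Between old and young knockout cells the genes parted in both directions. In CKO-OLD against CKO-YOUNG 37 of 80 were positive, with a median of -0.05 against 0.00 over all genes, and fold changes from -0.90 to 1.41. EdgeR called 0 (0.7% of all genes, 0.338% higher and 0.362% lower), DESeq2 1 (12.1%) and limma-voom 37, of them 8 higher and 29 lower (51.5%); 6 had an unadjusted p under 0.05 (24.5%). Rps4l was 49.5, 45.9 and 42.3 CPM in CKO-YOUNG and 35.7, 17.5 and 28.0 in CKO-OLD (log2 fold change -0.76, SE 0.24, edgeR adjusted p = 0.091; DESeq2 log2 fold change -0.73, adjusted p = 0.0452, with 0.000313 to 0.551 over its alternatives). It and Rpl10a were wholly lower in CKO-OLD (15.2% of all genes), and 0 genes were wholly higher (16.3%). For Rps2 the values given above gave log2 fold change -0.90, SE 0.33, edgeR adjusted p = 0.123, the groups overlapping through CKO-YOUNG 3. Rpl29, a large subunit protein whose loss in mice gives short stature, was 401, 395 and 293 CPM in CKO-YOUNG and 299, 188 and 205 in CKO-OLD (log2 fold change -0.65, SE 0.26, edgeR adjusted p = 0.148). CKO-YOUNG 1 and 2 were high, and CKO-YOUNG 3 lay inside the CKO-OLD range. With CKO-YOUNG 3 as the sole young library, in set 3, 34 of 80 were positive (median -0.05), Rps2 turned to 0.11 and Rps29 alone was called by edgeR (log2 fold change -1.16; 5.38% of all genes). Without CKO-YOUNG 3, edgeR called 5 (3 higher, 2 lower; 15.7% of all genes). Without composition scaling 52 of 80 were positive and the all-gene median moved from 0.00 to 0.11. Leaving out CKO-OLD 1 took the median of the 80 to -0.37, and leaving out CKO-OLD 2 took it to 0.11. Macrophage markers were positive in 15 of 16 (median 2.48), osteoclast markers in 8 of 9 and chondrocyte markers in 6 of 7. Smooth muscle and pericyte markers were positive in 0 of 6 (median -2.24). Osteoblast markers were positive in 7 of 12, and edgeR called 2 of the 12 higher (0.338% of all genes). The part of these markers in the values was not tested.

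CON-YOUNG and YOUNG, the young cells with and without the driver and reporter, did not overlap for more members than any other groups compared, at shares near those of all genes. In CON-YOUNG against YOUNG 27 of 80 were positive, with a median of -0.12 against -0.01 over all genes; edgeR and DESeq2 called 0 (5.55% of all genes, 1.72% higher and 3.83% lower, and 12.5%) and limma-voom 22, of them 7 higher and 15 lower (45.4%). An unadjusted p under 0.05 was reached by 6 genes (23% of all genes). No CON-YOUNG library overlapped YOUNG for 8 genes higher (10.1% of all genes) and 9 lower (13%). The 8 were Rpl3, Rpl4, Rpl6, Rpl8, Rpl13, Rpl18, Rps2 and Rpsa, and the 9 were Rpl26, Rpl31, Rpl35a, Rpl37, Rpl39, Rpl41, Rps12, Rps21 and Rps25. Rps21, a small protein of the small subunit body, was 302, 243 and 289 CPM in YOUNG and 97.9, 109 and 213 in CON-YOUNG (log2 fold change -0.99, SE 0.38, edgeR adjusted p = 0.134). Rpl8, near the peptidyl transferase centre, was 709, 622 and 614 CPM in YOUNG and 919.6, 1052 and 764 in CON-YOUNG (log2 fold change 0.49, SE 0.21, edgeR adjusted p = 0.172). Rps4l was 49.9, 56.9 and 33.1 CPM in CON-YOUNG against the YOUNG values above (log2 fold change 0.60, SE 0.24, edgeR adjusted p = 0.154), overlapping. In all 3 genes CON-YOUNG 3, of set 3, was nearest to YOUNG. Without it edgeR called 3 genes (1 higher, 2 lower; 17.1% of all genes), among them Rps21 (-1.43, adjusted p = 0.0244, with 0.000294 to 0.818 over its alternatives) and Rps4l (0.79, adjusted p = 0.0357, with 0.00135 to 0.980). Between YOUNG 3 and CON-YOUNG 3, 57 of 80 were positive (median 0.12), and with a term for set 66 were (median 0.18), the reverse of the pooled lean. All 16 macrophage markers were called lower in CON-YOUNG here; their part in these values was not tested.

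The age difference was then compared between lines, as the change from CKO-YOUNG to CKO-OLD minus that from YOUNG to OLD. Of the 80 genes 26 were positive, with a median of -0.15 against 0.01 over all genes; edgeR and DESeq2 called 0 (0% and 1.66% of all genes) and limma-voom 32, of them 4 higher and 28 lower (34.1%). An unadjusted p under 0.05 was reached by 2 genes (12% of all genes), Rps2 (log2 fold change -1.03, SE 0.46, edgeR adjusted p = 0.397) and Rpl29 (log2 fold change -0.83, SE 0.37, edgeR adjusted p = 0.397), and Rpl10a came next (log2 fold change -0.76, SE 0.37, edgeR adjusted p = 0.431). Rps2 read -0.90 with age in the knockout line and 0.14 in C57BL/6J, and Rpl29 -0.65 and 0.17. Within set 3, with 1 library for each of 3 of the 4 groups, 37 of 80 were positive (median -0.03) and Rps2 turned to 0.18. CKO-OLD 1 moved this value most: without it the median was -0.47.

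Among the stalk genes Rplp0 was the most even and Rplp2 the least. Rplp0, Rplp1 and Rplp2 form the stalk of the large subunit that recruits translation factors. Rplp0, often used as a reference gene in quantitative PCR, had the smallest standard deviation of log2 CPM of the members above 5 CPM, 0.215, with 1.78-fold between its lowest and highest library. It was 1729 ± 104 CPM in YOUNG (SD, n = 3, as below), 1704 ± 199.8 in OLD, 1824 ± 126 in CON-YOUNG, 1738 ± 192 in CKO-YOUNG, 1649 ± 525 in CKO-OLD and 1606 ± 318 in CON-OLD-iBP, and no log2 fold change exceeded 0.09 in size. Rplp2 varied more, from 284 to 783 CPM, with CON-OLD-iBP 3 the highest and CKO-OLD 2 the lowest. Rpsa, which also serves as a laminin receptor at the cell surface, was 1273, 1134 and 1331 CPM in YOUNG and 1788, 1970.4 and 1676 in CON-YOUNG, groups that did not overlap (log2 fold change 0.54, SE 0.30, edgeR adjusted p = 0.29).

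Rpl5, Rpl11 and Rpl23 are the members best known to bind Mdm2. Rpl5 kept log2 fold changes between -0.15 and 0.11 in the 8 comparisons. Rpl11 was highest in OLD 1 and OLD 3, at 677 CPM each, and lowest in CON-OLD-iBP 2, at 346. Rpl23 was 261, 287 and 504 CPM in CON-YOUNG and 299, 285 and 382 in CKO-YOUNG, and its 4 lowest libraries of 18 were those of set 2. The same 4 libraries were low in Mdm2, at 78.0 to 115 CPM against 162 to 359 elsewhere, and in the p53 target Cdkn1a, at 150.0 to 224 against 284 to 597. Trp53, the gene of p53, was highest there, at 148 to 159 CPM against 70.1 to 114. Of all genes tested, 9.33% were lowest and 11.3% highest in the libraries of set 2, and a link between these genes was not tested. Rps27l, the p53-induced member, was not set apart in these libraries: it was 77.6 to 109.8 CPM in set 2, inside the 65.3 to 178 of the others.

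Rps6, the target of S6 kinase, and Rps19, the gene most often mutated in Diamond-Blackfan anaemia, had small differences. Rps6 had log2 fold changes between -0.38 and 0.20, and Rps19 between -0.23 and 0.15. Rps27a encodes a fusion of ubiquitin and a small subunit protein. It was 470.1, 253 and 94.5 CPM in CKO-OLD 1, 2 and 3, the first the highest and the last the lowest of 18 libraries, against 217 to 470.1 CPM over all libraries but CKO-OLD 3.

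The 4 X-linked members were Rps4x, Rpl10, Rpl36a and Rpl39. Rps4x ranged from 519 to 889.5 CPM and Rpl10 from 494 to 966, highest in CON-YOUNG 2 and OLD 3 respectively. Rpl36a was lowest in set 2, at 63.2 to 79.5 CPM against 119.8 to 235 elsewhere. Xist-positive set 1 held 134 to 188 CPM of it. Of the paralogs, Rpl39l, the testis-enriched copy of Rpl39, was 34.5, 34.0 and 28.2 CPM in YOUNG, 26.2, 14.1 and 27.6 in OLD, 27.8, 31.6 and 8.04 in CON-YOUNG, 25.0, 23.9 and 33.8 in CKO-YOUNG, 28.7, 24.0 and 17.6 in CKO-OLD and 35.2, 19.8 and 9.36 in CON-OLD-iBP. CON-YOUNG 3 and CON-OLD-iBP 3 were its lowest libraries although the second of them was the highest for many other members. Rps4l, the paralog named in 5 of the comparisons, ranged from 17.5 to 56.9 CPM over all 18 libraries. Rpl22, an RNA-binding protein needed in lymphocyte development, was 158 to 526 CPM, with log2 fold changes from -0.30 to 0.33.

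Several of the least even genes had their lowest values in library set 2. The largest standard deviations of log2 CPM were those of Rps27, Rpl38, Rps28 and Rps21, and by share of the summed counts Rpl39l joined them. The 4 libraries of set 2 were the lowest of 18 for 10 of 80 members: Rpl23, Rpl23a, Rpl30, Rpl36a, Rpl37, Rpl37a, Rpl38, Rps21, Rps28 and Rps29. For all genes that share was 9.33%, so the count of members is near the background. Set 2 was highest for 3 members, Rpl7, Rpl8 and Rps4l (11.3% of all genes), set 3 was lowest for Rpl29 alone (1.55%), and set 1 was at neither end for any (6.66% of all genes highest and 1.84% lowest).

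Rpl38 was 42.6 to 51.6 CPM in set 2. Set 1 read 80.4 to 106 CPM and set 3 86.1 to 315 CPM, a 7.40-fold range. Rps28, at the mRNA exit site, was 65.9 to 83.9, 132 to 172 and 156 to 342 CPM in the same order. CKO-YOUNG 1 and 2 were both in the low set, so that the knockout and control libraries of set 2 lay together: Rps28 was 65.9 and 75.2 CPM in CON-YOUNG 1 and 2 and 83.9 and 69.6 in CKO-YOUNG 1 and 2. The third replicates were 156 and 279 CPM. At the other end, Rps10, Rps9 and Rps16 kept nearly fixed proportions. Rps16 took between 0.951% and 1.09% of the summed member counts in every library, and Rps9 between 1.63% and 1.90%.

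**Figure D3:**
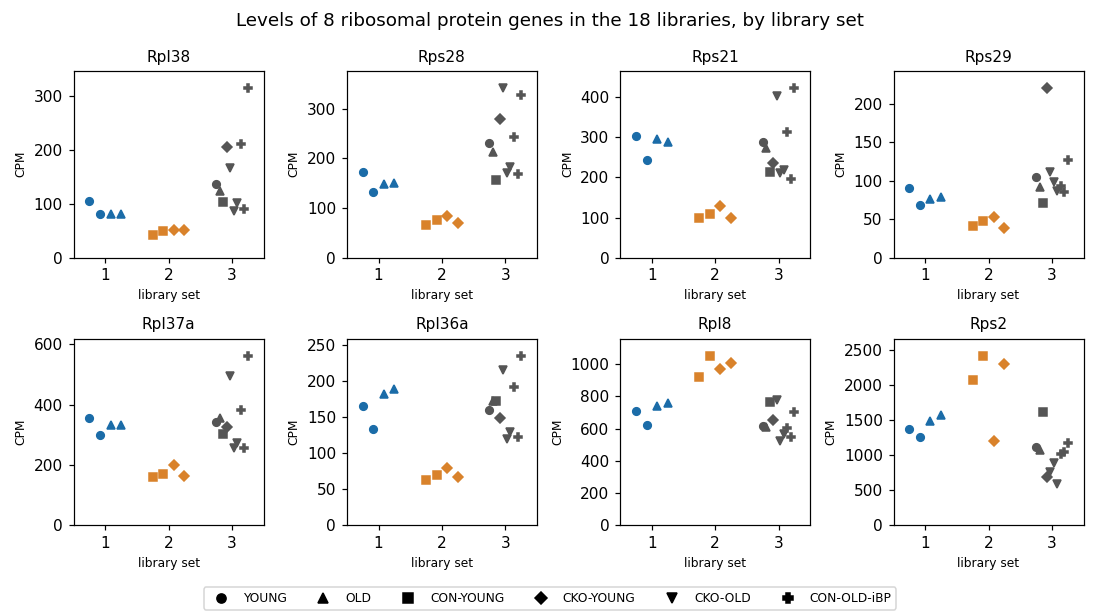
CPM of 8 ribosomal protein genes in the 18 libraries by library set, with a symbol for each group and axes from 0. In Rpl38, Rps28, Rps21, Rps29, Rpl37a and Rpl36a the 4 libraries of set 2 lie below all others; in Rpl8 they lie above, and in Rps2 3 of the 4 do.

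**Figure D4:**
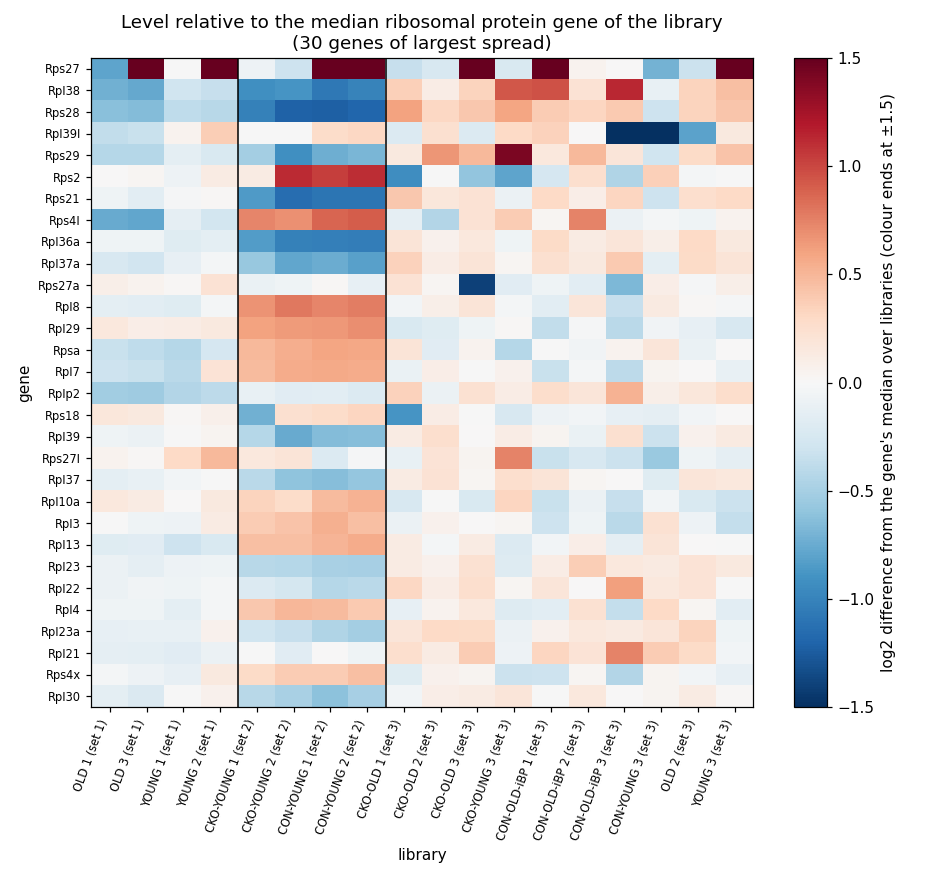
Level of the 30 members of largest spread (above 5 CPM) in each library relative to the median ribosomal protein gene of that library, shown as the log2 difference from the gene's own median; libraries are ordered by set, parted by black lines. The blocks of blue and red columns in set 2 are shared by CON-YOUNG and CKO-YOUNG, while Rps27 at the top differs between replicates in sets 1 and 3 and, in set 2, is low in both CKO-YOUNG libraries and high in both CON-YOUNG libraries.

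Start-site sequences are shown for 3 genes of large spread, for Rps18 and for the steady gene Rps10, from RefSeq on GRCm38.p6, while the counts were made on mm39; 61 of the 82 genes were matched to a window in that table. Each runs from 100 bases before the start to 10 after it, 5′ to 3′ on the gene's strand, with matches to the searched motifs in capitals.
Rps21 (chr2:180257279-180257388, plus strand): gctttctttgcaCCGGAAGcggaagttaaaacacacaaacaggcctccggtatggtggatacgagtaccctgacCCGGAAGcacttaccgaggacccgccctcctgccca
Rpl38 (chr11:114668480-114668589, plus strand): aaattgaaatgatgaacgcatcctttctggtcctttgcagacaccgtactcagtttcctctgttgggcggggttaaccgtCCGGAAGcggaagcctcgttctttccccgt
Rps28 (chr17:33824553-33824662, minus strand): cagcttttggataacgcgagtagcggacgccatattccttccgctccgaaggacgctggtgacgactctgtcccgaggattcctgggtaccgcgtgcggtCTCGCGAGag
Rps18 (chr17:33955656-33955765, minus strand): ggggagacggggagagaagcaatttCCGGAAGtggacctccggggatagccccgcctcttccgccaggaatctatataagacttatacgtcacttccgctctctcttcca
Rps10 (chr17:27635235-27635344, minus strand): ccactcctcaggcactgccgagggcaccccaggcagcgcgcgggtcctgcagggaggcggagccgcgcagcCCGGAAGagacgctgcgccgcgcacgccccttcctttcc

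In windows of 300 bases (250 before and 50 after the start, both strands), CCGGAAG, the core that ETS factors bind, was found in 25 of the 61 members (41.0%) and in 9.93% of 27025 genes. The palindrome CTCGCGAG was in 7 members (11.5%) and 1.04% of genes, AAGATGGC, a YY1 motif, in 5 (8.20%) and 3.19%, and the pyrimidine run CTCTTTC in 17 (27.9%) and 9.28%. TATAAA was in 7 (11.5%) and 15.7% of genes. CCGGAAG and AAGATGGC can share 3 letters, and the joined form was in 0 members and 1 gene. Rps21 and Rpl38, which were low in set 2, and Rps10, which was not, all hold CCGGAAG near the start. A match is a description of these letters and not evidence of a bound site.

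Rps27 was the least even member, and its counts ran opposite to those of Rps27rt, a retrogene of Rps27 outside the naming pattern. The pair was picked out after the values were seen. Rps27, a zinc finger protein of the small subunit, was 32.3, 165 and 111 CPM in YOUNG, 19.0, 19.4 and 186 in OLD and 91.7, 99.9 and 17.0 in CON-YOUNG. It read 23.2, 18.9 and 22.8 CPM in CKO-YOUNG, 25.5, 16.6 and 129.6 in CKO-OLD and 181, 20.1 and 36.3 in CON-OLD-iBP. Rps27rt was 191, 6.02 and 63.4 CPM in YOUNG, 182, 160.5 and 9.58 in OLD and 3.76, 6.58 and 119.6 in CON-YOUNG. Its values were 105, 81.3 and 319.5 CPM in CKO-YOUNG, 189, 134 and 5.86 in CKO-OLD and 10.2, 97.9 and 197 in CON-OLD-iBP. Libraries high in Rps27 were low in Rps27rt, replicates fell on either side in 5 of the 6 groups while all 3 of CKO-YOUNG were low in Rps27, and the copy took from 3.53% to 93.3% of the pair (correlation of log2 CPM over the 18 libraries -0.86, as a description).

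The start of both transcripts is shown because it bears on how reads can be assigned. Each line gives 40 bases before and 20 after the annotated start in RefSeq (GRCm38.p6), and capitals mark the beginning of a run of 38 bases that is identical in the transcripts of both genes and continues past the part shown.
Rps27 (chr3:90213629-90213688, minus strand): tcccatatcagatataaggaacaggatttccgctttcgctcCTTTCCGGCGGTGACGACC
Rps27rt (chr9:114982720-114982779, minus strand): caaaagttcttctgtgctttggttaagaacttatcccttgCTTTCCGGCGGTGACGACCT
The run starts at base 2 of the Rps27 transcript and base 1 of the Rps27rt transcript. Upstream of the starts, over 250 bases, the longest shared run was 10 bases. How reads that match both genes were assigned is not given in the sources used here, so the counts of either gene alone are uncertain.

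**Figure D5:**
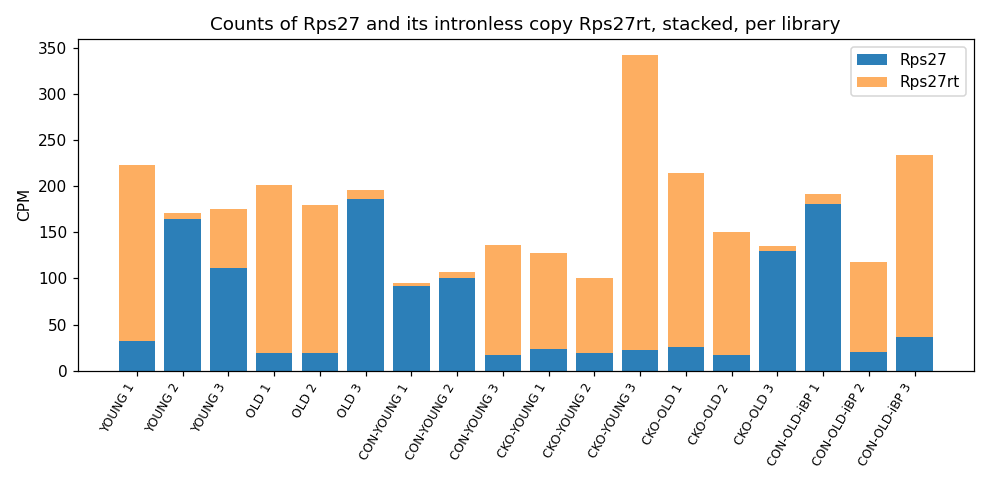
CPM of Rps27 (blue) and Rps27rt (orange) stacked for each of the 18 libraries. The blue part fills nearly the whole bar in 6 libraries, YOUNG 2, OLD 3, CON-YOUNG 1 and 2, CKO-OLD 3 and CON-OLD-iBP 1, and is a small part of the bar in all others but YOUNG 3, while the height of the bar runs from 95.5 to 342 CPM.

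Summed, the pair had a standard deviation of log2 CPM of 0.482, against 1.34 for Rps27 alone. The fold changes of Rps27 changed with it: CKO-YOUNG against CON-YOUNG went from -1.69 to 0.75 (SE 0.37, edgeR adjusted p = 0.946), CKO-OLD against CKO-YOUNG from 1.41 to -0.19 and the comparison of age differences from 1.86 to -0.21. The summed value of 0.75 stood beside an uneven group: the pair in CKO-YOUNG 3 held 342 CPM against 128 and 100.2 in CKO-YOUNG 1 and 2.

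A second pair split in 3 knockout libraries. Rps18-ps4, a processed copy of Rps18, had 0.101 to 0.483 CPM in 15 libraries and 115, 112 and 127 CPM in CKO-OLD 1, CKO-YOUNG 1 and CKO-YOUNG 3. Rps18 was 310.2, 262 and 399.8 CPM there, and 378, 352 and 489.8 in CKO-OLD 2, CKO-OLD 3 and CKO-YOUNG 2. None of the 12 libraries without the Kdm2b deletion showed the copy above 0.483 CPM. Summed with its copy, Rps18 in CKO-OLD against OLD was -0.59 (SE 0.23, edgeR adjusted p = 0.556) in place of -0.75. CKO-OLD 1 then read 425 CPM against 417 in OLD 2, so these groups overlapped. Of the 11 other pairs of a member and a copy that were looked at, Rpl36al held 43.3% to 58.6% of its pair with Rpl36a, Rpl14-ps1 9.66% to 16.6% and Rps6-ps4 5.77% to 12.3%, and in the other 8 the copy took at most 11.4%.

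Genes around the ribosome were read from lists chosen by function. Of 24 translation factors and other TOP mRNAs, 20 were positive in OLD against YOUNG (median 0.13, as for the ribosomal proteins). None of them was called (0% of all genes). In CKO-OLD against OLD 3 were positive (median -0.19). EdgeR called 1 in CON-YOUNG against YOUNG, Eif4b, a helicase cofactor of initiation (log2 fold change 0.55, adjusted p = 0.0412; 5.55% of all genes), and 1 in CKO-OLD against CKO-YOUNG, Hnrnpa1, an mRNA-binding protein (-1.33, adjusted p = 0.0380; 0.7% of all genes). Of 78 mitochondrial ribosomal proteins 66 were positive in OLD against YOUNG (median 0.13) and 13 in CKO-OLD against OLD (median -0.15). None of the 78 was called in any comparison, where 0% to 5.55% of all genes were. Of 38 proteasome subunits tested, 23 were positive in OLD against YOUNG and 4 in CKO-OLD against OLD. There 0 were called (0% and 0.00604% of all genes).

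Ribosome assembly factors were read beside the ribosomal proteins. Of 46 such genes, 1 was positive and 45 negative in CKO-OLD against CON-OLD-iBP, with a median of -0.73 against -0.13 for the 80 ribosomal protein genes, and 3 were called lower by edgeR (0.718% of all genes): Nop14 (log2 fold change -1.15, adjusted p = 0.0431) and Tsr1 (-1.44, adjusted p = 0.0472), which act in small subunit assembly, and Gar1 (-1.09, adjusted p = 0.0286), of the pseudouridylation complex. In CON-OLD-iBP against OLD 42 of the 46 were positive (median 0.51), and edgeR called 0 while 20 had an unadjusted p under 0.05 (23.4% of all genes). In CKO-OLD against CKO-YOUNG 2 were positive (median -0.55), and in OLD against YOUNG 12 (median -0.06). In CON-YOUNG against YOUNG 42 were positive (median 0.32, against -0.12 for the ribosomal proteins), and in the comparison of age differences 4 (median -0.45, against -0.15). The comparisons share libraries, so they are not separate evidence of the same difference. Osteoblast and macrophage markers were all positive in CKO-OLD against CON-OLD-iBP, as given above, and their part in these values was not tested. Of 17 regulators tested, edgeR called 1, Cdkn1a, lower in CON-YOUNG against YOUNG (-1.38, adjusted p = 0.0162). In that comparison 5.55% of all genes were called, 3.83% lower.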

How the data were processed

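RNA from 18 samples in 6 groups of 3 was analysed; the 8 CUT&Tag samples of the series are not analysed here. The values are whole-number counts per gene symbol deposited by the authors; per the submitters' processing notes FastQC, Trim Galore, HISAT2 and the mm39 build were used. The counting program, its annotation and strand setting, the treatment of reads that match several places and tool versions were not given in the sources used here. Library totals leave little counting error on most members.

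Groups were taken from the sample titles. Genes were filtered with filterByExpr (minimum count 10, minimum total 15), scaled by TMM and fitted in edgeR 4.0.16 (R 4.3.3) with 1 coefficient per group over all 18 libraries (robust quasi-likelihood, 12 residual degrees of freedom); p-values were adjusted by Benjamini-Hochberg over the 16566 genes tested, at a threshold of 0.05. The standard error of a log2 fold change is its size divided by the square root of F. CPM use TMM-scaled totals, and 0.5 was added before standard deviations on the log2 scale. The method was tested on simulated data. Members and gene lists were chosen with earlier results of these data known. The genes named in a comparison are the 3 members with the smallest p there, with the members of largest and smallest spread above 5 CPM and those of set roles; a further rule by level per coding length could not be applied. Library sets were parted at Malat1 above 0.05% of counts, after the data were seen.

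Alternatives were DESeq2 1.42.0, limma-voom with quality weights (limma 3.58.1), other scalings, no filter, a term for library set, fits within sets, summed copies, a replicate block, the 2 groups alone and leaving out each library. Replicates of a number deviated together in CKO-YOUNG with CON-YOUNG (r 0.276, 0.333 and 0.324) and in CON-YOUNG with YOUNG (0.179, 0.355 and 0.343). In these groups replicate 3 is of set 3, and replicates 1 and 2 are of set 1 or set 2. Pairing and library set therefore cannot be told apart by these values, and the labels name no pairs. The numbers were treated as pairs only in the replicate block, an alternative fitted for every comparison. The main fit has no such block. No pair of replicates was alike within counting noise. In the closest, OLD 1 and OLD 3, the median squared difference was 6.23 times what counting alone gives. The other pairs ran from 16.0 (CKO-YOUNG 1 and 2) to 219 (CON-YOUNG 1 and 3), so OLD 1 and OLD 3 were much the most alike. Motifs were searched on both strands of RefSeq GRCm38.p6 windows. Values of a few genes are not reported here.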

Additional observations from a re-analysis of the deposited data

How the results depend on the processing

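The counts of called members moved with few settings. Limma-voom with quality weights called 61 of the 80 in CKO-OLD against OLD (41.1% of all genes) and 19 in CON-OLD-iBP against OLD (40.2%). It called 37 in CKO-OLD against CKO-YOUNG (51.5%), 22 in CON-YOUNG against YOUNG (45.4%) and 32 in the comparison of age differences (34.1%). EdgeR called 0 of the 80 in these comparisons, and 0% to 5.55% of all genes. The cause was not tested. DESeq2 called 1 in CKO-OLD against CKO-YOUNG (12.1% of all genes). In fits within set 3, Rps29 had a log2 fold change of -1.16 there and 1.64 in CKO-YOUNG against CON-YOUNG. Leaving out each library gave 0 to 5 in CKO-OLD against CKO-YOUNG (5 without CKO-YOUNG 3, where 15.7% of all genes were called). It gave 0 to 3 in CON-YOUNG against YOUNG (3 without CON-YOUNG 3, with 17.1% of all genes), and 0 in the other 6. Within set 3 the log2 fold change turned for Rpl28 in OLD against YOUNG (-0.054), Rpl32 in CON-OLD-iBP against OLD (0.045), and Rps2 in CKO-OLD against CKO-YOUNG (0.11) and in the age differences (0.18); these fits hold 1 library in at least 1 group, assumed to vary like the others. Rps29 in CKO-YOUNG against CON-YOUNG ran from -0.22 to 1.38 as libraries were left out. Of the settings for named members, 407 kept direction and side of the threshold, 20 passed it anew and 5 turned.

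With a replicate block, 0 members were called in all 8 comparisons, as without it. The block fits called 0% of all genes in OLD against YOUNG, CKO-YOUNG against CON-YOUNG, CKO-OLD against OLD and CON-YOUNG against YOUNG. In the last of these the main fit called 5.55%, so 0 members with the block is no check there. The block fits called most in CKO-OLD against CON-OLD-iBP, 2.15% of all genes higher and 2.09% lower. Rpl3l and Rpl10l had too few counts to be tested.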
